A study of Mus musculus with 12 samples.

Results

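The genes described here encode the plasminogen activators Plau and Plat, the urokinase receptor Plaur, the metalloproteinases Mmp2, Mmp14 and Adamts1, and the tissue inhibitors of metalloproteinases Timp1, Timp2 and Timp3. They were chosen by name, with earlier results of these data known, and all 9 were found among the 24770 gene symbols measured. All 9 also had at least 1 FPKM (fragments scaled to transcript length and to the mapped total) in at least 3 libraries, as did 12311 genes in all, and were tested. RNA was sequenced from GC-2, an immortalised mouse line, in 12 libraries, 3 for each of 4 groups, all labelled WT. The groups were MLN4924 at 1 µM in hypoxia (1% O2), MLN4924 at 1 µM in normoxia, DMSO in hypoxia and DMSO in normoxia, each for 24 h. MLN4924 inhibits the NEDD8-activating enzyme and thereby the cullin-RING ubiquitin ligases, and DMSO is its solvent. The design asks how neddylation and oxygen act, alone and together, on these cells.

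All samples were taken as GC-2 from their cell line label, although another label gives each a different GC number. The label of the cells, type B spermatogonia, was set against germ cell markers. Of 11 listed spermatogonial markers, 6 were in the table and 2, Uchl1 and Gfra1, averaged at least 1 FPKM. Uchl1 averaged 14.2 FPKM over all libraries, and Gfra1 had group means of 1.55 to 5.58 FPKM. Ddx4, a helicase of all germ cells, and Kit, a receptor of differentiating spermatogonia, did not exceed 0.047 FPKM in any group mean. Id4 and Nanos3 did not exceed 0.09 FPKM. Listed markers absent from the table could not be judged. None of the 3 spermatocyte and spermatid markers in the table averaged 1 FPKM, whereas 6 of 9 fibroblast and peritubular markers did. Of the other lists, 5 of 6 Sertoli cell and 2 of 5 Leydig cell markers in the table averaged at least 1 FPKM. Macrophage and leukocyte markers did so in 2 of 5 and endothelial markers in 0 of 5. The fibroblast list summed to 1294 to 1354 FPKM in MLN4924 hypoxia, 1086 to 1103 in MLN4924 normoxia, 1179 to 1428 in DMSO hypoxia and 1223 to 1248 in DMSO normoxia. Within that sum the levels of single members lay in opposite directions, which was not tested. Acta2 averaged 406 FPKM in MLN4924 hypoxia and 371 in MLN4924 normoxia, against 27.9 in DMSO hypoxia and 52.5 in DMSO normoxia. Col1a1 averaged 465 FPKM in MLN4924 hypoxia and 366 in MLN4924 normoxia, against 684 in DMSO hypoxia and 617 in DMSO normoxia. The part of these markers in the results was not tested. The germ cell label thus had RNA of few listed markers behind it, chiefly Uchl1 and Gfra1, and the cells are called GC-2 below. In such bulk libraries fewer cells with a transcript and less of it per cell cannot be told apart.

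DMSO hypoxia replicate 1 stood apart. Its values summed to 633597 FPKM, against 530452 to 557779 in the other 11 libraries. Relative to its group, genes split into 5 bins by transcript length deviated by a median of 0.34 log2 units in the shortest bin and -0.39 in the longest. Among the members it deviated by 0.40 for Timp1, the shortest transcript, and by -0.45 for Timp3. The other members lay between -0.39 (Mmp14, in the middle length bin) and 0.17 (Plau), with -0.16 for Adamts1, the longest. The members thus did not follow length in order. The members' tests whose call turned on it are given with and without it.

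Plasminogen activators cut plasminogen into plasmin, a broad protease that degrades fibrin and matrix proteins and activates some metalloproteinase zymogens. Urokinase (Plau) acts largely at the cell surface through its receptor Plaur, and tissue-type activator (Plat) is best known from fibrinolysis. Mmp2 is a secreted gelatinase that is activated at the membrane by Mmp14, with Timp2 as the bridge between them. Timp1 and Timp2 are soluble inhibitors, Timp3 is bound to matrix and also inhibits several ADAM and ADAMTS proteases, and Adamts1 is a secreted protease that cleaves versican. In the testis these systems are studied in the remodelling of the seminiferous epithelium and in germ cell movement.

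The promoters of the members whose RNA moved with MLN4924 or oxygen are shown because AP-1, a factor of stress and growth signals, and the hypoxia-inducible factors bind short elements in such windows. A RefSeq table on GRCm38.p6, which is not the mm39 build of the submitters, held 6 of the 9 members, and each window is the 250 bases before the annotated start. A pair of elements was searched on both strands, the AP-1 site TGANTCA and the core of the hypoxia response element, ACGTG or GCGTG. The Plaur window (chr7:24462233-24462482, plus strand) held an AP-1 match, in capitals, whose first base lies 69 bases before the start (position -69). An AP-1 match was found in 6.75% of all 32851 windows of this length, and in none of the other 5 members' windows.
Plaur: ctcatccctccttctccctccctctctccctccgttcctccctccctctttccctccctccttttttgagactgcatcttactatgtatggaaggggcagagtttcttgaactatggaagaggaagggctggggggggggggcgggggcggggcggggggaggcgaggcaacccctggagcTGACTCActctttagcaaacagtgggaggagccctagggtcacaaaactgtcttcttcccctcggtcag
The core of the hypoxia response element, in capitals in the next 4, was found in the other 5 windows and in 38.6% of all windows. It lay at -158 in Adamts1 (chr16:85803114-85803363, minus strand), -69 in Timp3 (chr10:86300162-86300411, plus strand), -113 in Timp2 (chr11:118355412-118355661, minus strand) and, on the reverse strand, at -48 in Mmp14 (chr14:54431348-54431597, plus strand). The Timp1 window held it at -206 and -82, and the Plaur window held none.
Adamts1: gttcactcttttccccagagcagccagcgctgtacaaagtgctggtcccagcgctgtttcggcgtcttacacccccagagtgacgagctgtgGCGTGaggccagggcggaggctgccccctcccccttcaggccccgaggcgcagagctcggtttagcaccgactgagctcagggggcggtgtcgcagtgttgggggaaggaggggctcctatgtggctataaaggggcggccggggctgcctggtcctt
Timp3: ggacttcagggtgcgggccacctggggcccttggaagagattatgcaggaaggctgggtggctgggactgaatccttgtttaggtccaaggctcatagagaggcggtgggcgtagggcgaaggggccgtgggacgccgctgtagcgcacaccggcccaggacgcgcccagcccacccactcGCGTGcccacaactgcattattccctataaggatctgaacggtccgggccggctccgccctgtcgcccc
Timp2: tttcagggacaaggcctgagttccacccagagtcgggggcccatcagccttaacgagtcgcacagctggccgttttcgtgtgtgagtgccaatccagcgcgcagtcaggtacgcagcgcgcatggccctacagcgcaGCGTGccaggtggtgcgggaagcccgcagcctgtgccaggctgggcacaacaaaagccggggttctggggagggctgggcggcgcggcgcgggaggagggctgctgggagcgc
Mmp14: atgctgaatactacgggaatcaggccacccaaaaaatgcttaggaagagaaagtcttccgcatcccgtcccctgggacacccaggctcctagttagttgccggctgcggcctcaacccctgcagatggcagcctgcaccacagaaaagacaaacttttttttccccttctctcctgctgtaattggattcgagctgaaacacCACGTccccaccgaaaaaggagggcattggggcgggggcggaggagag
A match describes these letters and is not evidence of binding. Of the 5 genes with the core, Adamts1 was higher and Timp2 and Mmp14 were lower in DMSO hypoxia than in DMSO normoxia, so a match went with either direction.

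All 9 members were called where MLN4924 and hypoxia were combined, 5 with hypoxia alone and 4 with MLN4924 alone. The count for the combination was 9 in 3 of the 12 omissions of 1 library, those of DMSO hypoxia, and 7 or 8 in the others, where Timp1 and in part Plau lost their calls. Genes are said to rise or fall where limma's adjusted p was under 0.05 on log2(FPKM + 1), a scale that understates the change of low genes. Against DMSO normoxia, MLN4924 hypoxia had 4 members higher and 5 lower, beside 14.6% of all tested genes higher and 21.2% lower. DMSO hypoxia against DMSO normoxia had 2 higher and 3 lower (13.8% and 19.4% of all genes), and MLN4924 normoxia against DMSO normoxia had 2 higher and 2 lower (9.33% and 10.7%). Within hypoxia, MLN4924 against DMSO had 3 higher and 2 lower (12.2% and 13.3%). Within MLN4924, hypoxia against normoxia had 2 higher and 4 lower (11.7% and 16.5%). MLN4924 normoxia against DMSO hypoxia had 2 higher, Plaur (1.20 ± 0.09) and Plat (0.24 ± 0.06), and 2 lower, Timp3 (-0.33 ± 0.10) and Mmp2 (-0.27 ± 0.05), beside 22.8% and 19.7% of all genes. That Timp3 call held in 7 of the 12 omissions of 1 library and in 6 of 8 other settings, with adjusted p up to 0.128. Without DMSO hypoxia replicate 1 the Timp3 estimate was -0.48. The Plat call held in all 12 omissions and in 7 of 8 other settings, with adjusted p up to 0.0696. The median member's log2 fold change was -0.11 in DMSO hypoxia and -0.03 in MLN4924 normoxia, each against DMSO normoxia, where the median of all genes was -0.08 and -0.03. It was -0.13 for MLN4924 within hypoxia (all genes -0.01), -0.26 for hypoxia within MLN4924 (all genes -0.05) and -0.27 for MLN4924 hypoxia against DMSO normoxia (all genes -0.07). These comparisons share groups and are not independent of each other. Leaving out DMSO hypoxia replicate 1 raised the share of all genes called in the 5 comparisons that follow, and the members' counts in all but the combination. With hypoxia in DMSO 7 members were then called, beside 38.7% of all genes (33.2% with that library), and with MLN4924 in normoxia 6, beside 34.2% (20.04% with it). For MLN4924 within hypoxia 6 were called, beside 32.4% (25.5% with it), for hypoxia within MLN4924 7, beside 42.6% (28.2% with it), and for the combination 9, beside 49.3% (35.8% with it). For MLN4924 within hypoxia the count was 3 without MLN4924 hypoxia replicate 2 or 3, beside 19.1% and 17.5% of all genes. Of all genes called, 41.5% were higher with hypoxia in DMSO and 40.7% for the combination, and 52.0% and 51.1% under median-of-ratios scaling.

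**Figure D1:**
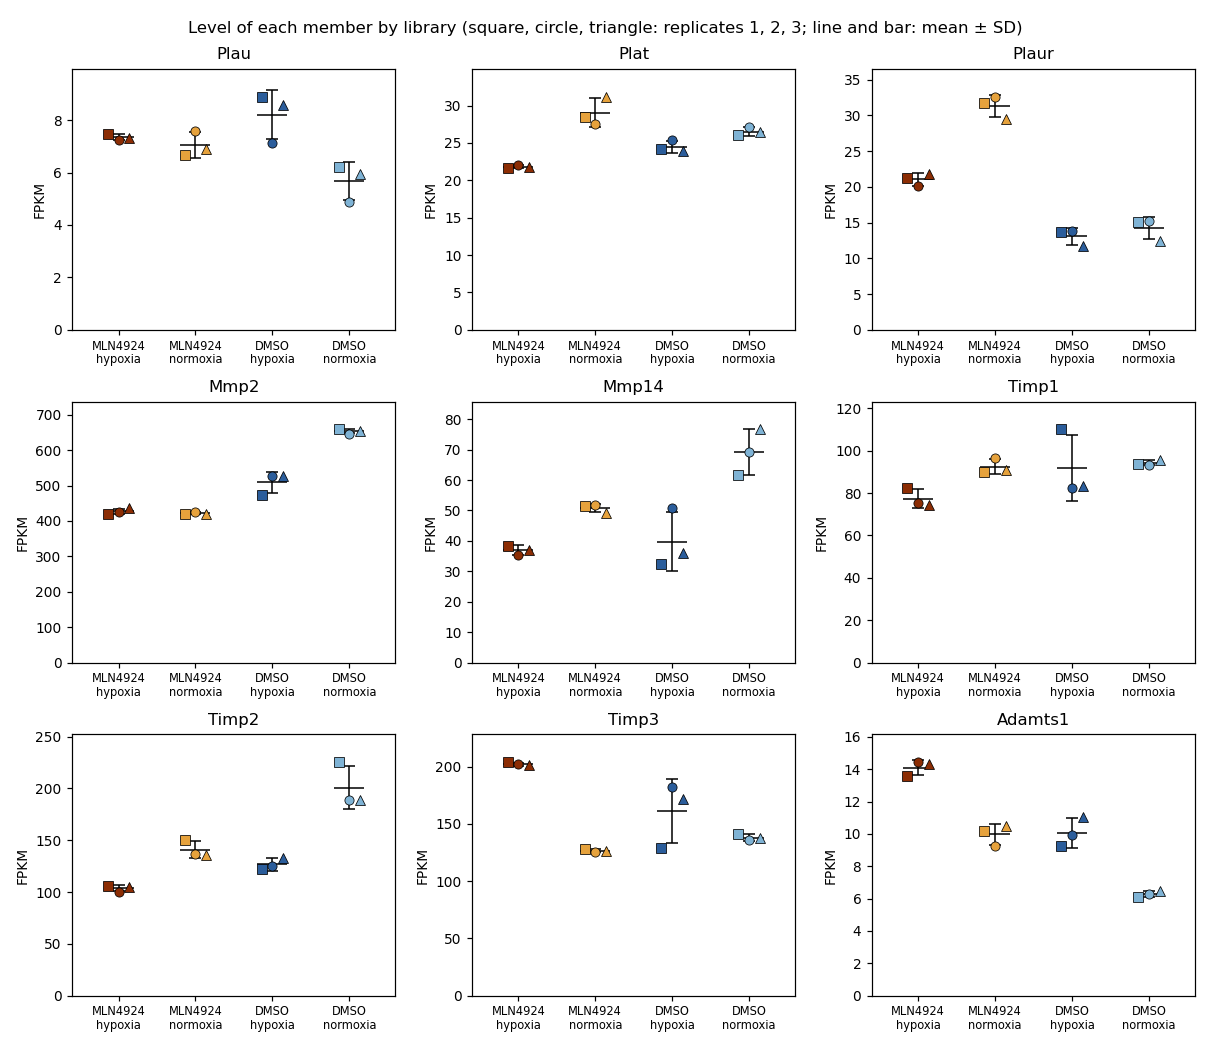
FPKM of each member (y axis, from 0) in the 12 libraries by group (x axis), with squares, circles and triangles for replicates 1, 2 and 3 and lines with bars for mean ± SD of 3 libraries. Plaur lies higher in MLN4924 groups, Adamts1 is highest in MLN4924 hypoxia, and Mmp2 and Timp2 are highest in DMSO normoxia.

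Plau, which encodes urokinase, was low and rose modestly with hypoxia in DMSO. It had 7.49, 7.26 and 7.31 FPKM in MLN4924 hypoxia, 6.67, 7.59 and 6.90 in MLN4924 normoxia, 8.90, 7.14 and 8.56 in DMSO hypoxia and 6.22, 4.86 and 5.95 in DMSO normoxia. All 9 libraries with hypoxia, MLN4924 or both lay above the 3 libraries with neither. DMSO hypoxia was 0.46 ± 0.10 log2 units above DMSO normoxia (SE, adjusted p = 0.00679), or 1.38-fold. A fit of those groups alone ended this call (adjusted p = 0.0623). MLN4924 hypoxia was 0.33 ± 0.10 above DMSO normoxia (adjusted p = 0.0310), a call that was lost without DMSO normoxia replicate 2 or 3 or any single MLN4924 hypoxia library, with adjusted p up to 0.118. MLN4924 normoxia differed from DMSO normoxia by 0.27 ± 0.10, which did not pass (adjusted p = 0.0928). Hypoxia within MLN4924 gave 0.05 ± 0.10 (adjusted p = 0.748). Its difference from the hypoxia effect in DMSO was -0.41 ± 0.15 and did not pass (adjusted p = 0.232).

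Plat, the tissue-type activator, moved the other way under the combined treatment. Its levels were 21.62, 22.04 and 21.84 FPKM in MLN4924 hypoxia, 28.47, 27.51 and 31.20 in MLN4924 normoxia, 24.14, 25.43 and 23.86 in DMSO hypoxia and 26.01, 27.11 and 26.44 in DMSO normoxia. The 4 groups did not overlap in this gene. With MLN4924 present, hypoxia lowered Plat (-0.39 ± 0.06 log2 units, adjusted p = 0.000657). MLN4924 hypoxia was also below DMSO normoxia (-0.27 ± 0.06, adjusted p = 0.00429). The single agents left differences of -0.11 ± 0.06 for hypoxia (adjusted p = 0.160) and 0.13 ± 0.06 for MLN4924 (adjusted p = 0.161), which did not pass. The difference between the hypoxia effects in MLN4924 and in DMSO was -0.28 ± 0.08 and did not pass either (adjusted p = 0.131). MLN4924 within hypoxia gave -0.16 ± 0.06 (adjusted p = 0.0694), and -0.17 without DMSO hypoxia replicate 1, where it passed (adjusted p = 0.0465).

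Plaur, the receptor that holds urokinase at the cell surface, showed the largest response to MLN4924 among the 9. It had 21.22, 20.10 and 21.82 FPKM in MLN4924 hypoxia and 31.68, 32.62 and 29.55 in MLN4924 normoxia. It had 13.70, 13.80 and 11.70 FPKM in DMSO hypoxia and 15.05, 15.24 and 12.49 in DMSO normoxia. Every MLN4924 library lay above every DMSO library, and within MLN4924 every hypoxia library lay below every normoxia library. In normoxia MLN4924 raised Plaur 2.12-fold (1.08 ± 0.09 log2 units, adjusted p = 2.5e-05), and in hypoxia 1.57-fold (0.65 ± 0.09, adjusted p = 0.000556). Hypoxia lowered it in MLN4924 (-0.55 ± 0.09, adjusted p = 0.00132), while in DMSO the groups overlapped and the difference was -0.12 ± 0.09 (adjusted p = 0.347). The difference between those hypoxia effects was -0.43 ± 0.13 and did not pass (adjusted p = 0.140). These 3 calls held without any single library. The AP-1 match of the Plaur window is the one printed above.

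Serpine2, which inhibits urokinase and thrombin, fell with MLN4924 in normoxia (-0.63 ± 0.07, adjusted p = 0.000145) and in hypoxia (-0.37 ± 0.07, adjusted p = 0.00293), and its change with hypoxia in DMSO was -0.11 ± 0.07 (adjusted p = 0.246).

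Ratios within a library put receptor and ligand side by side. The ratio of Plaur to Plau was 2.86 ± 0.111 in MLN4924 hypoxia, 4.44 ± 0.265 in MLN4924 normoxia, 1.61 ± 0.290 in DMSO hypoxia and 2.55 ± 0.531 in DMSO normoxia (SD, n = 3). It was lower in hypoxia than in normoxia with either treatment, without overlap, and higher with MLN4924 than with DMSO at either oxygen level. MLN4924 hypoxia and DMSO normoxia overlapped.

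**Figure D2:**
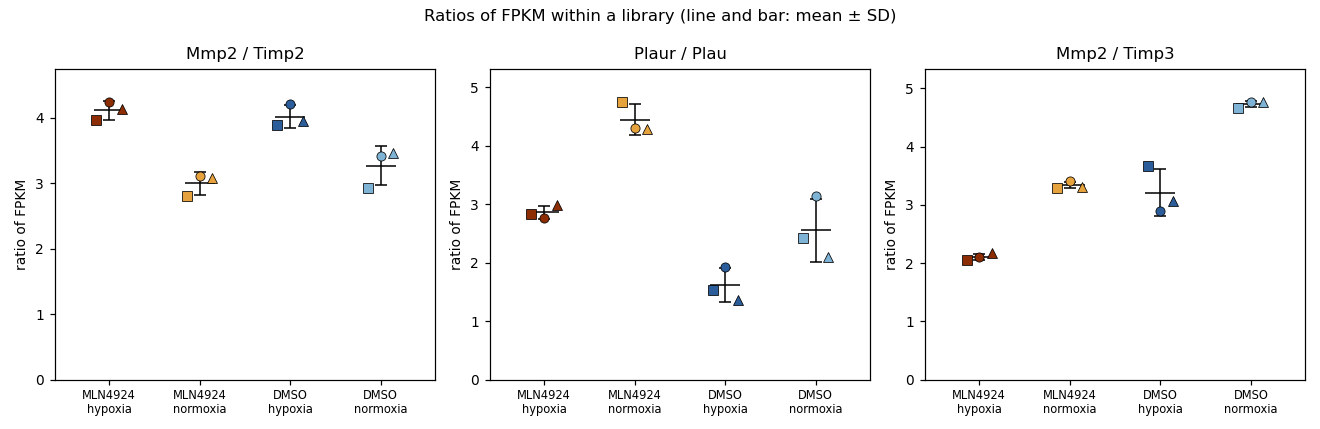
Ratios of FPKM within each library (y axes, from 0) by group (x axis) for Mmp2 over Timp2, Plaur over Plau, and Mmp2 over Timp3, with lines and bars for mean ± SD of 3 libraries. Mmp2 over Timp2 separates by oxygen, Plaur over Plau is highest in MLN4924 normoxia, and Mmp2 over Timp3 averages 2.11 in MLN4924 hypoxia and 4.73 in DMSO normoxia.

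Mmp2, the gelatinase, was the most abundant member in every group and fell with either agent. It had 419.82, 426.10 and 435.64 FPKM in MLN4924 hypoxia, 420.99, 425.28 and 418.81 in MLN4924 normoxia, 474.35, 526.63 and 525.59 in DMSO hypoxia and 658.03, 646.43 and 653.92 in DMSO normoxia. By mean level it ranked 196 of the 12311 tested genes in MLN4924 hypoxia, 192 in MLN4924 normoxia, 182 in DMSO hypoxia and 109 in DMSO normoxia. The MLN4924 groups overlapped with each other and lay below all DMSO libraries. MLN4924 lowered Mmp2 in normoxia (-0.63 ± 0.05, adjusted p = 1.95e-05, or 1.55-fold lower) and in hypoxia (-0.25 ± 0.05, adjusted p = 0.00469). Hypoxia lowered it in DMSO (-0.36 ± 0.05, adjusted p = 0.000401, or 1.28-fold lower), whereas hypoxia within MLN4924 gave 0.02 ± 0.05 (adjusted p = 0.825). The call for MLN4924 in hypoxia held in 6 of 8 other settings and was lost in a fit of those groups alone and after rescaling to equal totals, with adjusted p up to 0.119.

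Mmp2 was the only member whose hypoxia effect differed between MLN4924 and DMSO by the interaction test (0.38 ± 0.07 log2 units, adjusted p = 0.0267). Of all tested genes, 0.958% had a positive and 0.926% a negative interaction that passed, and the members had 1 and 0. The call was lost when any 1 library of MLN4924 hypoxia, MLN4924 normoxia or DMSO normoxia was left out, with adjusted p up to 0.0861, and held without each DMSO hypoxia library. Rescaling to equal totals also ended it (0.45, adjusted p = 0.103). Its estimate stayed between 0.33 and 0.40 over the 12 omissions. Without DMSO hypoxia replicate 1, Timp3 passed as well (0.32, adjusted p = 0.00306, against 0.47 and adjusted p = 0.156 with it).

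**Figure D3:**
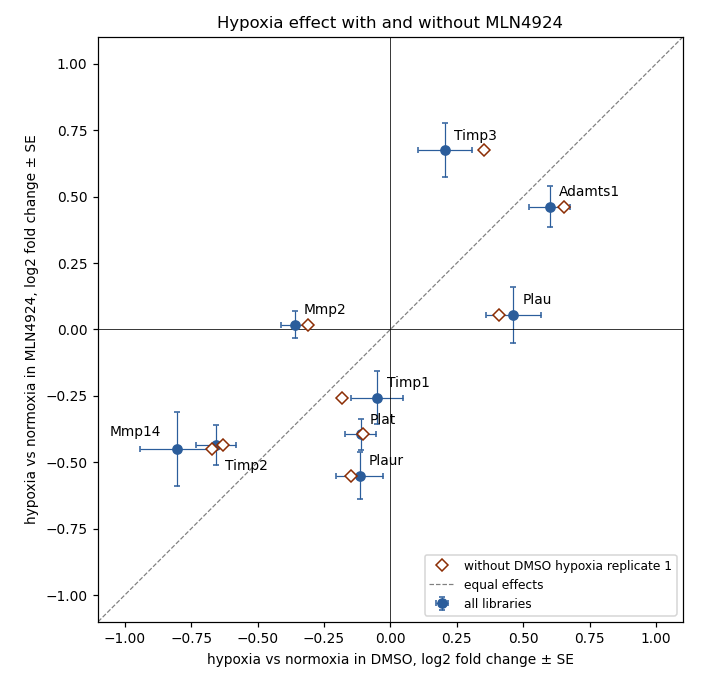
Log2 fold change ± SE of each member for hypoxia against normoxia in MLN4924 (y axis) and in DMSO (x axis), with open diamonds for estimates without DMSO hypoxia replicate 1 and a dashed line where both effects are equal. Mmp2 lies at 0.02 in MLN4924 and -0.36 in DMSO, and Timp3 moves most between the filled and open symbols.

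Mmp14, the membrane-type activator of pro-Mmp2, fell with hypoxia. It had 38.37, 35.23 and 37.17 FPKM in MLN4924 hypoxia, 51.41, 51.67 and 49.14 in MLN4924 normoxia, 32.43, 50.85 and 36.09 in DMSO hypoxia and 61.75, 69.20 and 76.59 in DMSO normoxia. DMSO hypoxia had the widest spread, and replicate 2 of that group reached the MLN4924 normoxia levels. Hypoxia in DMSO lowered Mmp14 (-0.80 ± 0.14 log2 units, adjusted p = 0.00156, or 1.75-fold lower), and it stayed called without any single library, at -0.99 to -0.67. Hypoxia within MLN4924 lowered it (-0.45 ± 0.14, adjusted p = 0.0348), a call lost without DMSO normoxia replicate 2 or any 1 of the 6 MLN4924 libraries, with adjusted p up to 0.105, and in 3 of 8 other settings, with adjusted p up to 0.0978. MLN4924 in normoxia gave -0.43 ± 0.14 with no overlap and an adjusted p of 0.0511, which passed without DMSO hypoxia replicate 1 (adjusted p = 0.0151) or replicate 2 (adjusted p = 0.00450). Within hypoxia MLN4924 gave -0.08 ± 0.14 (adjusted p = 0.711).

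Adamts1 rose with either agent and rose further with both. It had 13.57, 14.42 and 14.32 FPKM in MLN4924 hypoxia, 10.16, 9.25 and 10.50 in MLN4924 normoxia, 9.24, 9.92 and 11.04 in DMSO hypoxia and 6.08, 6.31 and 6.48 in DMSO normoxia. The single-agent groups overlapped, and both lay below the combination and above DMSO normoxia. Hypoxia in DMSO raised it 1.52-fold (0.60 ± 0.08 log2 units, adjusted p = 0.000284) and MLN4924 in normoxia 1.5-fold (0.59 ± 0.08, adjusted p = 0.000504). The combination was 2.07-fold above DMSO normoxia (1.05 ± 0.08, adjusted p = 4.17e-06). Adding MLN4924 within hypoxia gave 0.45 ± 0.08 (adjusted p = 0.00220) and adding hypoxia within MLN4924 0.46 ± 0.08 (adjusted p = 0.00167). The interaction was -0.14 ± 0.11 (adjusted p = 0.604). All 5 of these calls held without any single library and under the other 8 settings tried.

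**Figure D4:**
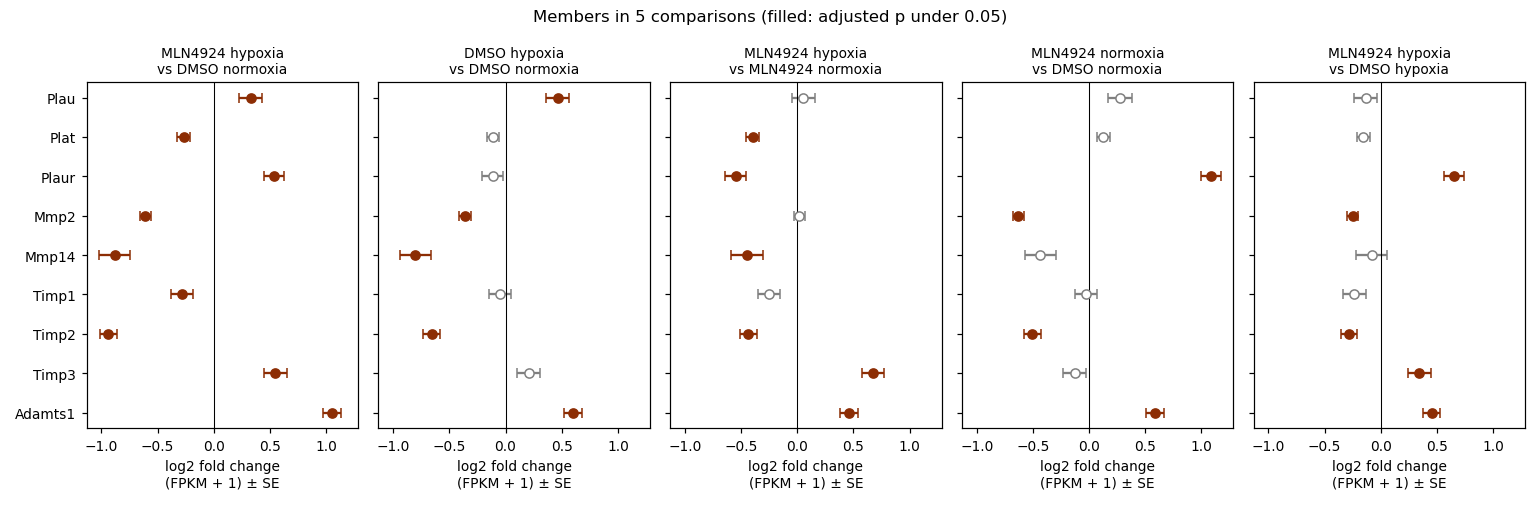
Log2 fold change of FPKM + 1 (x axes, ± SE) of the 9 members (rows) in 5 comparisons (panels), filled where the adjusted p was under 0.05. Adamts1 lies right of 0 and Timp2 left of 0 with filled symbols in all 5 panels.

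Timp2 fell in every comparison of a treated group with its control. Its levels were 105.87, 100.39 and 105.30 FPKM in MLN4924 hypoxia, 150.28, 136.65 and 135.89 in MLN4924 normoxia, 121.82, 124.87 and 133.14 in DMSO hypoxia and 225.06, 188.97 and 188.49 in DMSO normoxia. No pair of groups overlapped. Hypoxia in DMSO lowered it 1.58-fold (-0.66 ± 0.08 log2 units, adjusted p = 0.000113) and MLN4924 in normoxia 1.42-fold (-0.50 ± 0.08, adjusted p = 0.00101). The combination was 1.92-fold below DMSO normoxia (-0.94 ± 0.08, adjusted p = 6.42e-06). MLN4924 within hypoxia gave -0.28 ± 0.08 (adjusted p = 0.0199), lost without DMSO hypoxia replicate 3 or MLN4924 hypoxia replicate 2 or 3, with adjusted p up to 0.0686, and in 2 of 8 other settings, with adjusted p up to 0.0999. Hypoxia within MLN4924 gave -0.44 ± 0.08 (adjusted p = 0.00182).

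Timp3, the matrix-bound inhibitor, moved the opposite way in hypoxia. Its levels were 203.68, 202.15 and 201.07 FPKM in MLN4924 hypoxia and 127.73, 125.05 and 126.44 in MLN4924 normoxia. They were 129.20, 182.13 and 171.39 FPKM in DMSO hypoxia and 141.09, 135.65 and 137.42 in DMSO normoxia. Replicate 1 of DMSO hypoxia lay below all DMSO normoxia libraries and the other 2 above them. With MLN4924, hypoxia raised Timp3 1.60-fold (0.67 ± 0.10 log2 units, adjusted p = 0.000811). In DMSO the hypoxia effect was 0.20 ± 0.10 (adjusted p = 0.147), and 0.35 without DMSO hypoxia replicate 1 (adjusted p = 2.73e-05). MLN4924 within hypoxia gave 0.34 ± 0.10 (adjusted p = 0.0315), which was 0.19 without that library (adjusted p = 0.00144) and lost its call without any 1 MLN4924 hypoxia library (adjusted p up to 0.0820) and in 3 of 8 other settings (adjusted p up to 0.161). In normoxia MLN4924 gave -0.13 ± 0.10 (adjusted p = 0.447), and the same -0.13 passed once that library was left out of the shared spread (adjusted p = 0.00794). The part of transcript length in these differences was not tested.

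Timp1 varied least among the inhibitors. It had 82.42, 75.08 and 74.50 FPKM in MLN4924 hypoxia, 89.90, 96.75 and 90.87 in MLN4924 normoxia, 109.96, 82.44 and 83.23 in DMSO hypoxia and 93.92, 93.24 and 95.50 in DMSO normoxia. DMSO hypoxia replicate 1 was the highest of the 12 libraries, and the other 2 of its group lay below all DMSO normoxia libraries. The combination was below DMSO normoxia (-0.28 ± 0.10, adjusted p = 0.0452), a call that was lost in 9 of the 12 omissions of 1 library, those of the DMSO normoxia and both MLN4924 groups, with adjusted p up to 0.127, and in 2 of 8 other settings, with adjusted p up to 0.131. Hypoxia in DMSO gave -0.05 ± 0.10 (adjusted p = 0.732, and 0.02 under median-of-ratios scaling), and without replicate 1 it gave -0.18 and passed (adjusted p = 0.0144). Hypoxia within MLN4924 gave -0.26 ± 0.10 (adjusted p = 0.0775), which passed without that library (adjusted p = 0.00117). MLN4924 normoxia against DMSO hypoxia gave 0.02 ± 0.10 (adjusted p = 0.878), and 0.16 without DMSO hypoxia replicate 1, where it passed (adjusted p = 0.0238). MLN4924 within hypoxia gave -0.23 ± 0.10 (adjusted p = 0.107), and -0.10 without that library (adjusted p = 0.152).

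Genes annotated across Mmp2, Timp1, Timp2 and Timp3 (Gm45472, Syn1, Cep295nl and Syn3) had at most 2.92 FPKM in any library. Whether the counting used strand is not given in the sources used here, so reads from such overlaps could not be assigned.

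Timp2 and Timp3 exchanged places between oxygen levels, and Timp1 had the lowest mean of the 3 inhibitors in every group. Timp3 made up 52.8 ± 0.785% of the 3 transcripts' FPKM in MLN4924 hypoxia, 35.1 ± 0.581% in MLN4924 normoxia, 42.3 ± 5.74% in DMSO hypoxia and 31.9 ± 1.08% in DMSO normoxia (SD, n = 3). The DMSO hypoxia libraries had Timp3 shares of 35.8, 46.8 and 44.2%, the lowest in replicate 1. Timp2 made up 27.1 ± 0.535% in MLN4924 hypoxia, 39.1 ± 1.48% in MLN4924 normoxia, 33.4 ± 1.18% in DMSO hypoxia and 46.3 ± 2.29% in DMSO normoxia. Timp2 was thus the most abundant inhibitor in both normoxia groups by mean level, and Timp3 in both hypoxia groups. The sum was 383 ± 7.52 FPKM in MLN4924 hypoxia, 360 ± 7.45 in MLN4924 normoxia, 379 ± 16.0 in DMSO hypoxia and 433 ± 23.4 in DMSO normoxia. The 3 treated groups did not overlap with DMSO normoxia in these measures. With 3 libraries per group the smallest p of an exact permutation test is 0.1, and the ratios are therefore described by their overlap.

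**Figure D5:**
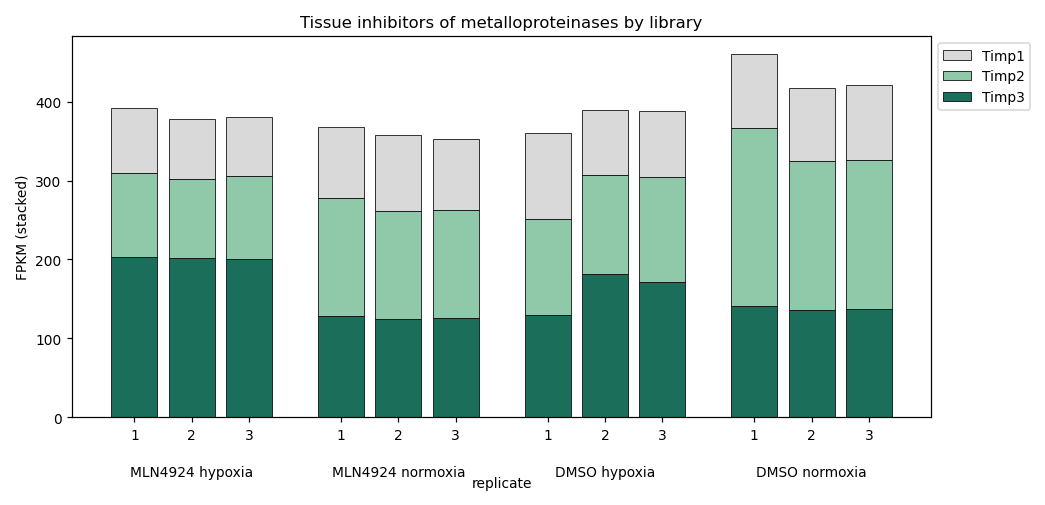
Stacked FPKM of Timp1, Timp2 and Timp3 (y axis, from 0) in each of the 12 libraries (x axis, replicates 1 to 3 within group). Timp3 forms the largest part of each MLN4924 hypoxia library, at 52.8 ± 0.785% of the sum, and Timp2 the largest part of each DMSO normoxia library, at 46.3 ± 2.29%.

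Protease and inhibitor changed unequally for Mmp2 and its partners. Mmp2 over Timp2 was 4.12 ± 0.141 in MLN4924 hypoxia, 3.00 ± 0.171 in MLN4924 normoxia, 4.02 ± 0.173 in DMSO hypoxia and 3.27 ± 0.302 in DMSO normoxia (SD, n = 3). The ratio was higher in hypoxia than in normoxia with either treatment, without overlap, and the MLN4924 and DMSO libraries overlapped at each oxygen level. Mmp2 over Timp3 was 2.11 ± 0.0528 in MLN4924 hypoxia, 3.34 ± 0.0565 in MLN4924 normoxia, 3.21 ± 0.409 in DMSO hypoxia and 4.73 ± 0.0567 in DMSO normoxia, and all 3 treated groups lay below DMSO normoxia. The DMSO hypoxia libraries had 3.67, 2.89 and 3.07, the highest in replicate 1. Mmp14 over Timp2 overlapped in every comparison, with group means of 0.315 to 0.361.

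The order of mean levels, per length, in MLN4924 hypoxia was Mmp2, Timp3, Timp2, Timp1, Mmp14, Plat, Plaur, Adamts1 and Plau. Among neighbours in that order only Plat and Plaur overlapped (21.62 to 22.04 against 20.10 to 21.82 FPKM). In MLN4924 normoxia Timp2 came before Timp3 and Plaur before Plat (31.3 ± 1.57 against 29.1 ± 1.91 FPKM), and only Plaur and Plat overlapped. DMSO hypoxia had the order of MLN4924 hypoxia, with Timp3 and Timp2 the only overlapping neighbours. DMSO normoxia differed from it in that Timp2 came before Timp3, and Adamts1 and Plau (6.08 to 6.48 against 4.86 to 6.22 FPKM) were the only neighbours that overlapped. Adamts1 ranked 4598 of the 12311 tested genes in MLN4924 hypoxia, 5833 in MLN4924 normoxia, 5701 in DMSO hypoxia and 7496 in DMSO normoxia. Plaur ranked 3479 in MLN4924 hypoxia, 2507 in MLN4924 normoxia, 4853 in DMSO hypoxia and 4774 in DMSO normoxia.

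Over the 12 libraries, the profile of each member was set beside 8123 genes with a mean of at least 5 FPKM by the root-mean-square distance of centred log2 values, where 0 is the same profile. Nearest to Plaur was Dusp5, a phosphatase of ERK (0.0864), followed by Ier5 (0.140). Nearest to Plau was Aurkb, a mitotic kinase (0.0676), to Plat the translation factor Eif4g2 (0.0472), to Mmp2 Mfsd12 (0.0510) and to Mmp14 Ogdh, an enzyme of the citric acid cycle (0.106). Nearest to Timp1 was Arl2bp (0.0492), to Timp2 Klhl42 (0.0918), to Timp3 Esyt1 (0.0811) and to Adamts1 Vopp1 (0.0699). The distance of a flat profile from a member is the member's own spread about its mean, which was 0.152 for Plat, 0.153 for Timp1, 0.194 for Plau, 0.257 for Mmp2, 0.277 for Timp3, 0.350 for Timp2, 0.379 for Adamts1, 0.381 for Mmp14 and 0.485 for Plaur. Mmp14 and Timp2 lay 0.204 apart, less than the spread of either. Plat and Timp1 lay 0.147 apart, which is about what a flat profile would give.

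The rest of the pathway was read from 6 lists. Their counts stand beside the shares of all tested genes called higher and lower in each comparison. These were 13.8% and 19.4% with hypoxia in DMSO, 9.33% and 10.7% with MLN4924 in normoxia, and 12.2% and 13.3% with MLN4924 in hypoxia. They were 11.7% and 16.5% with hypoxia in MLN4924, and 14.6% and 21.2% for the combination against DMSO normoxia. Of the other plasminogen genes, 10 of 18 listed were tested. With hypoxia in DMSO 2 were higher and 0 lower, with MLN4924 in normoxia 2 and 4, with MLN4924 in hypoxia 2 and 3, with hypoxia in MLN4924 4 and 0, and for the combination against DMSO normoxia 3 and 2. Its median log2 fold change ran from -0.25 (MLN4924 in normoxia) to 0.08 (hypoxia in DMSO). No list median was computed without DMSO hypoxia replicate 1. Anxa2, part of a surface receptor for plasminogen and Plat, rose with hypoxia in DMSO (0.71 ± 0.08, adjusted p = 0.000127) and fell with MLN4924 in normoxia (-0.42 ± 0.08, adjusted p = 0.00542) and in hypoxia (-0.71 ± 0.08, adjusted p = 0.000208). Without DMSO hypoxia replicate 1, Anxa2 gave 0.60 with hypoxia in DMSO and -0.60 with MLN4924 in hypoxia, and both calls held.

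Among the other matrix metalloproteinases only 3 of 21 listed were tested, Mmp11, Mmp19 and Mmp28. Mmp11, also called stromelysin-3, had 56.4 FPKM in MLN4924 hypoxia and rose in all 5 of the comparisons above, from 0.25 ± 0.05 with MLN4924 in normoxia (adjusted p = 0.00658) to 0.99 ± 0.05 for the combination (adjusted p = 3.32e-07). Mmp19 and Mmp28 were lower in each of the 3 treated groups than in DMSO normoxia, of which the DMSO hypoxia calls were the least stable. They held in 8 (Mmp19) and 7 (Mmp28) of the 12 omissions of 1 library, and were lost without DMSO hypoxia replicate 1 (Mmp19 -0.46, adjusted p = 0.0820, and Mmp28 -0.35, adjusted p = 0.0614). The Mmp19 calls held in 9 of 12 omissions for MLN4924 normoxia (adjusted p up to 0.0685) and for MLN4924 hypoxia (up to 0.0575). Those of Mmp28 held in all 12. Both genes were low, with group means of 3.08 to 6.65 FPKM for Mmp19 and 1.11 to 2.81 for Mmp28.

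Of the other ADAMTS and ADAM proteases 16 of 25 listed were tested. With hypoxia in DMSO 2 were higher and 3 lower, with MLN4924 in normoxia 3 and 3, with MLN4924 in hypoxia 5 and 3, with hypoxia in MLN4924 2 and 2, and for the combination 3 and 3. The median of this list ran from -0.12 (hypoxia in DMSO) to 0.30 (MLN4924 in hypoxia), and both comparisons include DMSO hypoxia replicate 1. Adamts2, which processes procollagen, fell with MLN4924 in normoxia (-0.92 ± 0.08, adjusted p = 3.32e-05) and in hypoxia (-0.89 ± 0.08, adjusted p = 4.43e-05), the opposite direction to Adamts1. The membrane protease Adam19 rose with MLN4924 in normoxia (1.03 ± 0.16, adjusted p = 0.00128) and fell with hypoxia in DMSO (-0.66 ± 0.16, adjusted p = 0.00958, and -0.44, adjusted p = 0.00258, without DMSO hypoxia replicate 1).

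Of other inhibitors and activators of metalloproteinases 7 of 12 listed were tested. With hypoxia in DMSO 2 were higher and 1 lower, with MLN4924 in normoxia 0 and 3, with MLN4924 in hypoxia 1 and 2, with hypoxia in MLN4924 2 and 0, and for the combination 1 and 2. The list had medians of -0.34 (MLN4924 in normoxia) to 0.08 (hypoxia in MLN4924). Bsg, the inducer of metalloproteinases also called CD147, rose with hypoxia in DMSO (1.94 ± 0.11, adjusted p = 7.94e-07) and in MLN4924 (1.49 ± 0.11, adjusted p = 6.48e-06) and fell with MLN4924 in hypoxia (-0.80 ± 0.11, adjusted p = 0.000476). Without DMSO hypoxia replicate 1, Bsg gave 1.79 with hypoxia in DMSO and -0.65 with MLN4924 in hypoxia, and both calls held. Reck, a membrane-anchored inhibitor with under 4 FPKM in each library, rose with hypoxia in MLN4924 (0.47 ± 0.11, adjusted p = 0.0103) and in DMSO (0.39 ± 0.11, adjusted p = 0.0222) and fell with MLN4924 in normoxia (-0.41 ± 0.11, adjusted p = 0.0274). The Reck calls in DMSO hypoxia and MLN4924 normoxia held in 8 and 7 of the 12 omissions, and its interaction was 0.08 ± 0.16 (adjusted p = 0.840).

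Of the matrix substrates 11 of 17 listed were tested. With hypoxia in DMSO 0 were higher and 1 lower, with MLN4924 in normoxia 2 and 1, with MLN4924 in hypoxia 3 and 1, with hypoxia in MLN4924 1 and 0, and for the combination 3 and 1. Substrate medians ran from -0.23 (hypoxia in DMSO) to 0.40 (MLN4924 in hypoxia). Both of these comparisons include DMSO hypoxia replicate 1, which read low for long transcripts, and its part in these medians was not tested. Thbs1, a matricellular protein, rose with MLN4924 in normoxia (1.45 ± 0.09, adjusted p = 5.32e-06) and in hypoxia (1.77 ± 0.09, adjusted p = 1.22e-06). Nid1, a basement membrane linker, rose with MLN4924 in normoxia (1.17 ± 0.14, adjusted p = 0.000231) and in hypoxia (1.14 ± 0.14, adjusted p = 0.000260, and 0.93 without DMSO hypoxia replicate 1).

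AP-1 and ETS factors, many of which bind promoters of protease genes, were tested for 11 of 12 listed. With hypoxia in DMSO 5 were higher and 2 lower, with MLN4924 in normoxia 6 and 3, with MLN4924 in hypoxia 4 and 2, with hypoxia in MLN4924 5 and 2, and for the combination 5 and 2. The factors had medians of 0.02 (hypoxia in MLN4924) to 0.48 (MLN4924 in normoxia). Fosl1, an AP-1 subunit, rose with MLN4924 in normoxia (1.06 ± 0.14, adjusted p = 0.000531) and fell with hypoxia in MLN4924 (-1.02 ± 0.14, adjusted p = 0.000543). In hypoxia its libraries overlapped, with 20.49, 14.73 and 18.59 FPKM in MLN4924 against 12.73, 16.71 and 18.24 in DMSO. Junb, another AP-1 subunit, fell with MLN4924 in normoxia (-0.32 ± 0.06, adjusted p = 0.00480) and in hypoxia (-1.03 ± 0.06, adjusted p = 3.22e-06). Atf3, a stress-induced factor, rose in all 5 comparisons, by 2.09 ± 0.12 for the combination (adjusted p = 8.27e-07).

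Over the 6 lists together 58 genes were tested. For hypoxia in DMSO 21 were called, or 27 without DMSO hypoxia replicate 1, beside the 33.2% and 38.7% of all genes given above. With MLN4924 in normoxia 30 were called (37 without it, beside 20.04% and 34.2% of all genes), and with MLN4924 in hypoxia 27 (30 without it, beside 25.5% and 32.4%). With hypoxia in MLN4924 19 were called (29 without it, beside 28.2% and 42.6%), and for the combination 28 (36 without it, beside 35.8% and 49.3%). In hypoxia the count for MLN4924 was 17 without MLN4924 hypoxia replicate 3, beside 17.5% of all genes. The interaction passed for 6 of the 58 (1.88% of all genes), for 13 without DMSO hypoxia replicate 1 (5.51%) and for 3 without MLN4924 normoxia replicate 3 (0.731%).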

How the data were processed

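RNA was measured by paired-end sequencing in 12 GC-2 libraries, 3 per group, which the series text calls biological replicates. The deposited values were FPKM, computed by the authors and given for 24770 gene symbols in 1 table. Per the submitters' processing notes the tools were fastp, STAR and RSEM 1.3.3 with the mm39 build. The gene annotation and strand setting are not given in the sources used here. FPKM carries no counts, so depth is unknown and counting error was not estimated.

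Of these, 12311 genes reached 1 FPKM in 3 or more libraries. Their log2(FPKM + 1) values entered a limma 3.58.1 fit (R 4.3.3) of the 4 group means, with a variance trend and Benjamini-Hochberg adjustment over all tested genes within each of 7 comparisons (2-sided, threshold 0.05). The fit was tested on simulated data that gave a gene the same spread in every library. The simulation thus did not cover a library that stands apart, as DMSO hypoxia replicate 1 does. Alternatives were pseudocounts of 0.1 and 5, no filter, rescaled totals, median-of-ratios scaling, array weights, a fit of the compared groups, a replicate block and each library left out. Ratios, distances and promoter searches used Python 3.11.15 and pandas 2.3.3. Transcript lengths (GENCODE M21) were found for 97.5% of tested genes. Same-numbered libraries were checked for pairing, and 0 of 18 pairs had deviations correlated above 0.1.

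Named were all members, up to 3 called genes per direction, pathway list and comparison, Serpine2 and Reck, and the 2 genes nearest to each member. From these, examples were taken for the text, and 1 gene that the rule names is not reported here. The members, lists and comparisons were chosen with earlier results of these data known. No pathway or marker list was tested as a set.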

Additional observations from a re-analysis of the deposited data

Results flagged for a closer look

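The hypoxia effect on Mmp2 differed between MLN4924 and DMSO by a test of the difference, with an interaction of 0.38 log2 units. Mmp2 had 427 ± 7.97 FPKM in MLN4924 hypoxia and 422 ± 3.29 in MLN4924 normoxia, and 509 ± 29.9 in DMSO hypoxia and 653 ± 5.88 in DMSO normoxia (SD, n = 3). The adjusted p of the interaction ran from 0.000769 to 0.0861 when 1 library was left out, and it passed in 3 of the 12 omissions. It passed in 5 of 7 other settings, with adjusted p up to 0.103.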

How the results depend on the processing

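A pseudocount of 0.1 changed no call of a member. Median-of-ratios scaling turned the sign of Timp1 for hypoxia in DMSO (0.016), MLN4924 in normoxia (0.00068) and MLN4924 normoxia against DMSO hypoxia (-0.015). Timp1 passed in none of these in the main fit. Rescaling to equal totals turned Adamts1 for MLN4924 normoxia against DMSO hypoxia (0.015). Leaving out 1 library gave -0.184 to 0.022 for Timp1 with hypoxia in DMSO, -0.0593 to -0.00685 with MLN4924 in normoxia and -0.0488 to 0.157 for MLN4924 normoxia against DMSO hypoxia. It gave -0.0655 to 0.0513 for Adamts1 in that last comparison and -0.210 to 0.106 for Mmp14 with MLN4924 in hypoxia. No reversed value passed the test. Over all omissions, 697 of the members' values kept direction and call, 41 lost the call, 10 gained it and 8 turned sign.

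Members with a called interaction numbered 1, but 0 with the replicate block and 0 with rescaled totals, 2 with array weights and 0 to 2 with 1 library left out. Of all genes 1.88% had one in the main fit, 1.07% with the replicate block, 2.22% with rescaled totals and 6.85% with array weights. With 1 library left out that share ran from 0.731% to 5.51%. The replicate block changed no other call of a member. With only the compared groups in the fit, 2 members passed for MLN4924 in hypoxia and 2 for MLN4924 normoxia against DMSO hypoxia. Of all genes 10.3% and 29.2% then passed, against 25.5% and 42.5% in the main fit. Rescaled totals left 3 for MLN4924 in hypoxia, beside 24.4% of all genes. Array weights gave 7 for MLN4924 in normoxia, beside 36.7% of all genes (20.04% in the main fit). With 1 library left out, the members called ran from 3 to 6 for MLN4924 in hypoxia, beside 17.5% to 32.4% of all genes. Pathway genes, whose omissions were chosen after seeing the data, ran from 3 to 13 for the interaction, 17 to 30 for MLN4924 in hypoxia and 14 to 29 for hypoxia in MLN4924. The shares of all genes ran from 0.731% to 5.51%, 17.5% to 32.4% and 20.5% to 42.6% in that order. The cause of these changes was not tested. Depth was unknown, so the limits it sets on low genes such as Plau could not be given.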
